A study of Mus musculus with 12 samples.

Results

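The clustered protocadherins are cell surface proteins of the cadherin superfamily, encoded by neighbouring genes in an alpha, a beta and a gamma cluster. The members were taken from the table of gene counts by their symbols, as every gene named Pcdha, Pcdhb or Pcdhg with a number. This rule found 58 of the 35976 genes, of which 14 belong to the alpha cluster, 22 to the beta cluster and 22 to the gamma cluster. The rule uses no measured value, though it was set with earlier results of these data known.

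The study sequenced RNA of mouse embryonic stem cells (mESC) in 12 libraries, which form 6 groups of 2 by genotype (3) and stage (2). KO+Rescue cells are the PROSER1 KO line with an inserted FLAG-tagged Proser1 coding sequence, delivered by PiggyBac transposition and grown again from single cells. PROSER1 KO cells grew from a single cell after CRISPR-Cas9 editing with a guide against exon 1, and WT is the parental line. Every genotype descends from a line made from Tet2 fl/fl blastocysts, so the control carries the floxed allele too. mESC were kept without feeder cells in serum with LIF and inhibitors of the kinases MEK and GSK3. The day 2 cells had been moved to N2B27, a serum-free medium listed without these inhibitors that lets stem cells turn towards neuroectoderm. The change of medium and the change of stage cannot be told apart, and since each edited genotype is 1 clone, neither can genotype and clone.

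In the alpha and gamma clusters, each member has its own large first exon, transcribed from its own promoter and spliced to constant exons that all members of the cluster share. The beta genes have a single exon each. In neurons, individual cells choose different promoters, and the mixture of isoforms on the surface lets neurites of a cell recognise and avoid each other. Promoter choice depends on the binding of CTCF and cohesin and on DNA methylation of the promoters, which is best known from mouse neurons and brain. The C-type members, such as Pcdhac2, Pcdhgc3 and Pcdhgc5, lie at the downstream end of their clusters and are used more broadly and less randomly than the others. PROSER1 binds TET enzymes, which oxidise methylated cytosine. The question addressed here is whether the RNA of these genes differed between KO and WT, whether it differed again in KO+Rescue, and how it changed as the cells left the stem cell state.

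All 58 genes lie on mouse chromosome 18 (GRCm38, RefSeq annotation). The alpha cluster spans chr18:36930285-37188897, the beta cluster chr18:37264998-37521419 and the gamma cluster chr18:37661775-37841873. The annotation lists 57 of the members as protein coding and Pcdhgb8 as a transcribed pseudogene. No sequence of these genes is shown here.

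Values are normalised read counts, that is, read pairs assigned to a gene and divided by the size factor of the library. The libraries held between 38634668 and 66450803 assigned reads, and 1 read was worth between 0.605 and 1.78 normalised counts. Comparisons were made with limma on the log2 of the normalised count plus 1, over the 15341 genes with a mean of at least 10 across the 12 libraries. P-values were adjusted over all of these genes by the method of Benjamini and Hochberg, and a gene was called at an adjusted p under 0.05. Each group has n = 2 libraries, and nothing in the labels says how their cultures were separated, so a p-value reflects the spread among these libraries alone, which may be technical. Log2 changes are given with their standard error (SE). Counting intervals are exact 95% intervals and cover counting error only.

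The labels were checked first. Proser1 itself had 3041.2 and 2993.7 normalised counts in KO+Rescue, 872.4 and 1067.0 in KO and 828.7 and 685.4 in WT at day 2. Its mESC values were 2828.5 and 3089.8 in KO+Rescue, 575.9 and 501.8 in KO and 889.1 and 550.5 in WT. The added copy was thus visible in all 4 KO+Rescue libraries, while counts over the whole gene do not test an edit in exon 1. All 9 pluripotent markers (among them Pou5f1, Nanog and Zfp42) fell at day 2 in each genotype, and of the 5 tested neuroectoderm markers 5 rose in KO+Rescue, 5 in KO and 4 in WT. The summed marker list of fibroblasts and feeders, of which 8 of 11 were tested, ran from 8972 to 9464 in KO+Rescue, from 9590 to 10628 in KO and from 5107 to 5308 in WT at day 2. Vim and Tagln, which other cells also express, had the highest day 2 means of that list in KO (4890 and 3530) and in WT (2527 and 1475). Of its 8 tested genes, 3 were higher and 0 lower in KO than in WT at day 2 (limma), where 5.21% of all tested genes were called. The summed list of 7 mesendoderm markers, of which 5 were tested, ran from 110 to 135 in KO+Rescue, from 448 to 477 in KO and from 167 to 222 in WT at day 2. Of these, the transcription factors T and Eomes were higher in KO than in WT and lower in KO+Rescue than in KO (limma). The summed list of 7 neuroectoderm markers ran from 4050 to 4097 in KO+Rescue, from 4469 to 4567 in KO and from 2227 to 3993 in WT at day 2. Of its 5 tested genes, 2 were higher and 0 lower in KO than in WT at day 2 (limma), beside the same 5.21%. The part of these 3 lists in the genotype comparisons below was not tested.

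Few members had enough reads for the test. Of the 58 genes, 12 reached a mean of 10 and were tested, and 11 of these belong to the gamma cluster (Pcdhga1, Pcdhga2, Pcdhga4, Pcdhga7, Pcdhga8, Pcdhga10, Pcdhga11, Pcdhga12, Pcdhgb7, Pcdhgc3 and Pcdhgc5). The alpha cluster gave 1 of its 14 genes, Pcdhac2, and the beta cluster none of its 22. The other 46 genes were below the filter, with 24 of them at a mean under 1. The filter separated genes of similar level, since Pcdhgc5 passed it with a mean of 10.2 and Pcdhgb2 missed it with 9.04. The 12 tested genes are therefore those with the most reads and do not stand for all members. A read was present in every library for 13 members, all from the gamma cluster. Pcdha4, Pcdha7, Pcdhb9 and Pcdhb15 were at 0 in every library, which still allows an expected count of up to 3 reads in each.

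**Figure D1:**
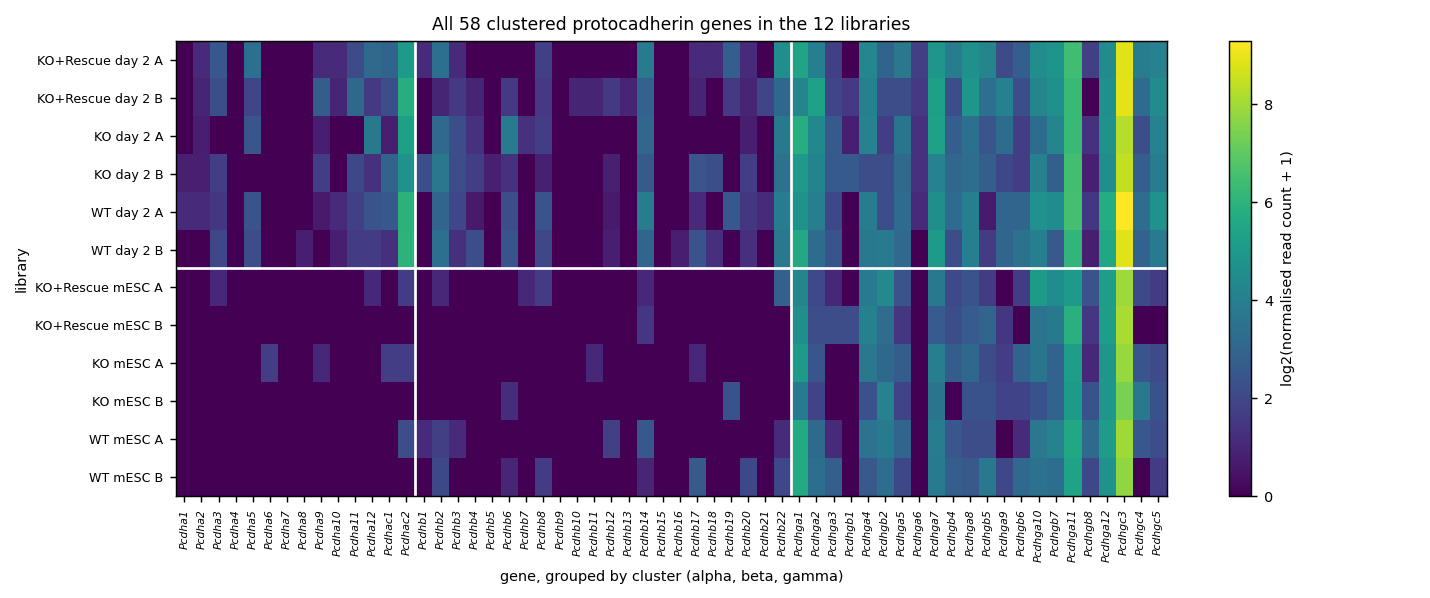
Log2 of the normalised read count plus 1 (colour) for the 58 clustered protocadherins (columns, grouped into the alpha, beta and gamma clusters by the white vertical lines) in the 12 libraries (rows, day 2 above the white horizontal line and mESC below it). Pcdhgc3 is the brightest column in every library, the gamma genes carry reads at both stages, and the alpha and beta genes are mostly at 0 in mESC.

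How reads were divided among overlapping members limits these values. The constant exons belong to all members of the alpha or gamma cluster, and how the authors' counting treated a read that falls in several genes was not given in the sources used here. The annotation also holds 3 genes that run from Pcdha4, Pcdha6 and Pcdha7 to the end of the gamma cluster, Gm37013, Gm38666 and Gm38667, and each was at 0 in all 12 libraries. Pcdha4 and Pcdha7 were at 0 as well, and the values of these members are uncertain. The strand setting was not given either. In bulk RNA, moreover, fewer cells that use a promoter and less RNA from it in each cell cannot be told apart.

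Per length, Pcdhgc3 stood well above the rest. Divided by the exon bases that a member does not share with any other (between 1570 and 4662 bases in the tested genes, from GENCODE), the mean level over all libraries was 99.9 normalised counts per 1000 bases for Pcdhgc3, against 23.1 for Pcdhga11 and 10.5 for Pcdhga1. The next 8 genes lay close together, between 4.39 for Pcdhga8 and 7.58 for Pcdhga4, and Pcdhgc5 was lowest with 2.19. At day 2 the level per 1000 unshared bases of Pcdhac2 was 13.9 in KO+Rescue, 10.2 in KO and 20.0 in WT. In mESC it was 0.333 in KO+Rescue, 0.357 in KO and 0.566 in WT, the lowest or next to lowest of the tested genes in each group. These levels assume that the counted reads came from the unshared bases, which was not tested.

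Summed over clusters, the 3 groups of genes differed in level and in how they changed with stage. The gamma cluster held 843 ± 4.37 normalised counts in KO+Rescue, 628 ± 13.7 in KO and 882 ± 148 in WT at day 2 (SD, n = 2 each). In mESC it held 468 ± 18.4 in KO+Rescue, 375 ± 71.2 in KO and 463 ± 36.0 in WT. Both libraries were higher at day 2 than in mESC in each genotype, and both KO libraries were below those of WT and of KO+Rescue at each stage. The day 2 sums lean on 1 gene, Pcdhgc3. By reads, the ratio of KO to WT at day 2 was 0.704 (0.662 to 0.748) with it and 0.886 (0.807 to 0.972) without it. In mESC the ratio was 0.824 (0.742 to 0.915) with Pcdhgc3 and 0.761 (0.653 to 0.886) without it. No test was made on a sum over members.

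The alpha cluster was nearly silent in mESC. Its 14 genes together had 146 reads in KO+Rescue, 135 in KO and 245 in WT at day 2, against 4 in KO+Rescue, 7 in KO and 3 in WT mESC. As normalised counts, the day 2 sums were 75.5 ± 8.84 in KO+Rescue, 50.1 ± 9.53 in KO and 80.5 ± 4.25 in WT. After normalisation, day 2 exceeded mESC by a ratio of 28.9 in KO+Rescue (interval 11.1 to 108), 11.7 in KO (5.53 to 29.7) and 49.2 in WT (16.6 to 240). By reads, the ratio of KO to WT at day 2 was 0.621 (0.4996 to 0.7693) with Pcdhac2. Without it the ratio was 1.004 (0.669 to 1.503), on 49 against 55 reads. The lower day 2 sum in KO than in WT thus rests on Pcdhac2. Without that gene, the ratio of KO+Rescue at day 2 was 1.718 (1.159 to 2.56) to KO and 1.725 (1.177 to 2.535) to WT.

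The beta cluster, which has no constant exons, was also low in mESC. Its 22 genes together had 85 reads in KO+Rescue, 138 in KO and 162 in WT at day 2, against 12 in KO+Rescue, 6 in KO and 29 in WT mESC. As normalised counts, the day 2 sums were 45.8 ± 18.2 in KO+Rescue, 51.3 ± 0.466 in KO and 53.1 ± 4.46 in WT, so the genotypes overlapped. In mESC they were 6.64 ± 6.87 in KO+Rescue, 3.82 ± 2.23 in KO and 15.7 ± 3.73 in WT, and both KO libraries were below both WT libraries. The ratio of KO to WT in mESC was 0.231 (0.0785 to 0.567), which rests on 6 against 29 reads.

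**Figure D2:**
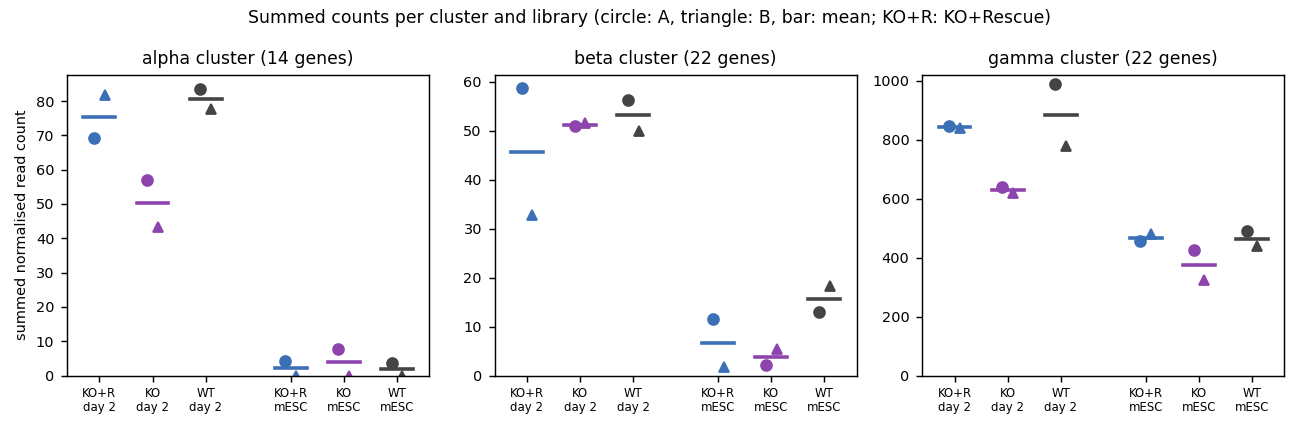
Summed normalised read counts per library for the alpha, beta and gamma clusters (panels, each with its own axis from 0), by genotype and stage, with a circle for library A, a triangle for library B and a bar for the mean of 2. In all 3 panels the day 2 libraries lie above the mESC libraries of the same genotype, and the gamma sums of KO (618 to 637 at day 2) lie below those of KO+Rescue (840 to 846) and WT (777 to 987).

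Leaving the stem cell state raised some of these genes in each genotype. At day 2 against mESC, 7 of the 12 tested members rose in KO+Rescue, 5 in KO and 5 in WT, and none fell. Among all tested genes, 29.2% rose in KO+Rescue, 31.4% in KO and 26.6% in WT, while 29.1% fell in KO+Rescue, 28.7% in KO and 25.3% in WT. Calls in either direction made up 58.2% in KO+Rescue, 60.1% in KO and 51.9% in WT. The median log2 change of the 12 members was 0.89 in KO+Rescue, 0.83 in KO and 0.81 in WT, beside medians over all genes of -0.03 in KO+Rescue, 0.02 in KO and -0.02 in WT. Some members, such as Pcdhac2 and Pcdhgc5, passed the filter only through their day 2 values, so the counts and medians over the 12 are no support for a rise of the family. Pcdhac2, Pcdhga11, Pcdhgc3 and Pcdhgc5 rose in all 3 genotypes, Pcdhga2 in KO+Rescue and KO, Pcdhga8 in KO+Rescue and WT, and Pcdhga7 in KO+Rescue. The remaining 5 (Pcdhga1, Pcdhga4, Pcdhga10, Pcdhga12 and Pcdhgb7) were called in none. That a member was called in some genotypes and not in others does not show that the genotypes differed, which is tested below.

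Pcdhgc3, a C-type gamma gene known in mouse to act in Wnt signalling through Axin1 and in dendrite growth, had more normalised counts than any other member of its cluster in each of the 12 libraries. Its normalised counts were 462.3 and 479.1 in KO+Rescue, 304.3 and 343.4 in KO and 625.9 and 455.7 in WT at day 2. In mESC they were 240.5 and 277.8 in KO+Rescue, 231.9 and 170.0 in KO and 246.6 and 214.7 in WT. Every day 2 library was above every mESC library, also across genotypes. The log2 change with stage was 0.86 ± 0.20 in KO+Rescue (adjusted p = 0.00276, limma), 0.70 ± 0.20 in KO (adjusted p = 0.00959) and 1.21 ± 0.20 in WT (adjusted p = 0.000272). The call in KO was lost without KO day 2 replicate B (0.61, adjusted p = 0.0720) and without KO mESC replicate B (0.48, adjusted p = 0.119). Pcdhgc3 took 56.0% of the gamma reads in KO+Rescue, 51.6% in KO and 61.5% in WT at day 2, and 54.8% in KO+Rescue, 53.6% in KO and 49.8% in WT in mESC.

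Pcdhac2, the last variable gene of the alpha cluster and the isoform used by serotonergic neurons for the tiling of their axons in mouse, had the largest fitted stage difference of the 12. At day 2 it had 32.9 and 54.5 normalised counts in KO+Rescue, 37.7 and 26.2 in KO and 61.7 and 63.8 in WT. In mESC 1 library of each genotype was at 0, and the other had 2.09 in KO+Rescue (2 reads), 2.24 in KO (2 reads) and 3.56 in WT (3 reads). The ratio of day 2 to mESC was 34.0 in KO+Rescue (interval 9.14 to 286), 26.1 in KO (7.01 to 219) and 38.1 in WT (12.9 to 187). The limma calls had adjusted p = 0.000394 in KO+Rescue, 0.000827 in KO and 0.000297 in WT. These calls held in every alternative in which the gene was tested. Pcdhac2 passed the filter only through its day 2 values, so the filter favoured a rise. Without a filter on low values the adjusted p was 0.00127 in KO+Rescue, 0.00242 in KO and 0.00102 in WT (limma). The ratios are wide because so few reads were present in mESC.

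Pcdhgc5, another C-type gamma gene, is expressed in the mouse mainly in the postnatal brain. It had 16.4 and 21.6 normalised counts in KO+Rescue, 16.3 and 14.2 in KO and 26.0 and 13.0 in WT at day 2. In mESC it had 2.09 and 0 in KO+Rescue, 3.36 and 4.05 in KO and 3.56 and 2.04 in WT. The groups of the 2 stages did not overlap in any genotype. Pcdhgc5 passed the filter only through its day 2 values, so the filter favoured a rise. Without a filter on low values the adjusted p was 0.00135 in KO+Rescue, 0.0485 in KO and 0.0149 in WT (limma). The ratio of day 2 to mESC was 14.6 in KO+Rescue (3.78 to 125), 4.15 in KO (1.75 to 11.96) and 7.35 in WT (2.98 to 23.4). These rest on 37 against 2 reads in KO+Rescue, 41 against 6 in KO and 61 against 5 in WT, and the limma calls had adjusted p = 0.000723 in KO+Rescue, 0.0368 in KO and 0.0102 in WT. In KO the call was lost when any 1 of the 4 libraries was left out (adjusted p between 0.0852 and 0.138), and in WT without WT day 2 replicate A (1.92, adjusted p = 0.107) or WT mESC replicate B (2.10, adjusted p = 0.0606).

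Pcdhga11 was the member with the highest mean after Pcdhgc3. It had 85.7 and 78.0 normalised counts in KO+Rescue, 78.3 and 89.0 in KO and 91.4 and 68.8 in WT at day 2. The mESC libraries had 31.4 and 58.8 in KO+Rescue, 34.7 and 32.4 in KO and 46.2 and 40.7 in WT. Again every day 2 library was above every mESC library. The log2 change was 0.91 ± 0.32 in KO+Rescue (adjusted p = 0.0265, limma), 1.29 ± 0.32 in KO (adjusted p = 0.00376) and 0.86 ± 0.32 in WT (adjusted p = 0.0387). The calls in KO+Rescue and WT depended on single libraries, and the change was smallest without KO+Rescue mESC replicate A (0.47, adjusted p = 0.242) and without WT day 2 replicate A (0.65, adjusted p = 0.212). Those calls were also lost without KO+Rescue day 2 replicate A or B (adjusted p = 0.115 and 0.0711) and without WT mESC replicate A or B (adjusted p = 0.0630 and 0.139).

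Pcdhga2, Pcdhga7 and Pcdhga8 are A-type gamma genes, isoforms chosen singly or in small sets by individual neurons. Pcdhga2 had 15.3 and 38.5 normalised counts in KO+Rescue, 19.2 and 17.2 in KO and 14.5 and 8.70 in WT at day 2. Its mESC values were 3.14 and 3.56 in KO+Rescue, 4.48 and 2.70 in KO and 8.30 and 9.16 in WT. The day 2 libraries were thus higher in KO+Rescue and KO, while those of WT overlapped with WT mESC. Its mean over all libraries, 12.1, passed the filter only through its day 2 values. The mESC means were 3.35 in KO+Rescue, 3.59 in KO and 8.73 in WT. The filter thus favoured a rise with stage, most of all in KO+Rescue with its day 2 mean of 26.9. The log2 change was 2.54 ± 0.58 in KO+Rescue (adjusted p = 0.00220, limma), 2.09 ± 0.58 in KO (adjusted p = 0.00739) and 0.34 ± 0.58 in WT (adjusted p = 0.647). Without KO mESC replicate B the change in KO was 1.81 (adjusted p = 0.0504).

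Pcdhga8 had 24.6 and 29.1 normalised counts in KO+Rescue, 9.60 and 8.98 in KO and 15.1 and 15.2 in WT at day 2. In mESC it had 4.18 and 5.34 in KO+Rescue, 7.84 and 4.05 in KO and 3.56 and 5.09 in WT. The stages did not overlap in any genotype, and at day 2 neither did the genotypes. Its mean over all libraries, 11.1, passed the filter only through its day 2 values, above all its KO+Rescue day 2 mean of 26.9. The mESC means were 4.76 in KO+Rescue, 5.95 in KO and 4.32 in WT. The filter thus favoured a rise with stage, and calls in which KO+Rescue day 2 is high. The log2 change with stage was 2.28 ± 0.53 in KO+Rescue (adjusted p = 0.00262, limma), 0.62 ± 0.53 in KO (adjusted p = 0.328) and 1.62 ± 0.53 in WT (adjusted p = 0.0215). The call in WT was lost without WT day 2 replicate A (1.62, adjusted p = 0.0926), WT day 2 replicate B (1.62, adjusted p = 0.0801) or WT mESC replicate A (1.41, adjusted p = 0.0906). Pcdhga7 had 29.3 and 37.6 normalised counts in KO+Rescue, 39.2 and 16.5 in KO and 23.6 and 32.6 in WT at day 2. The mESC libraries had 12.5 and 5.34 in KO+Rescue, 14.6 and 10.8 in KO and 14.2 and 13.2 in WT. It was higher at day 2 in each genotype and passed the test in KO+Rescue (1.88 ± 0.52, adjusted p = 0.00712), a call lost without KO+Rescue day 2 replicate B (1.71, adjusted p = 0.0524) or KO+Rescue mESC replicate B (1.34, adjusted p = 0.0731).

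**Figure D3:**
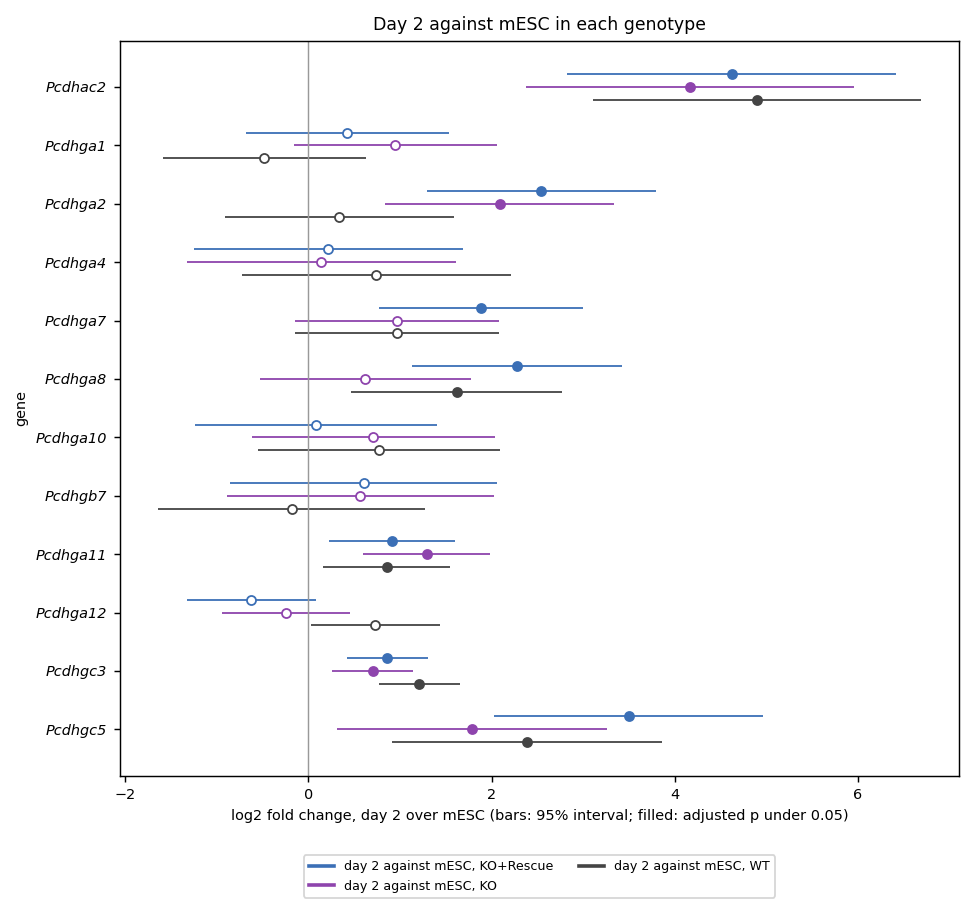
Log2 fold change of day 2 over mESC for the 12 tested members (rows) in KO+Rescue (blue), KO (purple) and WT (grey), with 95% intervals from limma and filled points for an adjusted p under 0.05. Pcdhac2 lies farthest to the right (4.62 in KO+Rescue, 4.17 in KO and 4.90 in WT), Pcdhga11, Pcdhgc3 and Pcdhgc5 are filled in each genotype, and no point left of 0 is filled.

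With equal library totals in place of the deposited size factors, the median log2 change with stage of all genes was 0.34 in KO+Rescue, 0.35 in KO and 0.21 in WT, a shift upwards in every genotype. Since all called members rose under the deposited size factors, this alternative could not have turned their direction.

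The members below the filter carried few reads, and most of these were found at day 2. Of the 13 alpha genes under the filter, 10 had a read in some day 2 library and 5 in some mESC library, with no library value above 12.6 (Pcdha12) at day 2 and 2.24 (Pcdha6) in mESC. Of the 22 beta genes, 20 had a read at day 2 and 13 in mESC, with no library value above 22.3 and 6.27, both in Pcdhb22. Of the 11 gamma genes, 11 had a read at day 2 and 10 in mESC, with no value above 17.6 (Pcdhgb5) and 19.9 (Pcdhgb2).

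The 6 members under the filter that held a mean of at least 10 in some group were Pcdhb2, Pcdhb14, Pcdhb22, Pcdhgb2, Pcdhgb5 and Pcdhgc4. Pcdhb22, the highest of the beta genes, had 22.3 and 7.51 normalised counts in KO+Rescue, 12.6 and 10.5 in KO and 13.9 and 12.3 in WT at day 2. Its mESC values were 6.27 and 0 in KO+Rescue, 0 and 0 in KO and 1.19 and 3.05 in WT. The stages did not overlap in any genotype, and neither KO mESC library held a read of Pcdhb22, Pcdhb2 or Pcdhb14. Pcdhgb2 had 7.04 and 3.76 in KO+Rescue, 2.22 and 3.74 in KO and 3.63 and 13.0 in WT at day 2. In mESC it had 19.9 and 8.90 in KO+Rescue, 7.84 and 16.2 in KO and 13.0 and 9.16 in WT, so that its day 2 libraries were lower in KO+Rescue and KO and overlapped with mESC in WT. Pcdhgb5 had 17.6 and 9.39 in KO+Rescue, 4.43 and 5.99 in KO and 0.605 and 2.17 in WT at day 2, an order without overlap. These genes were not in the test. Each was named through the groups in which it was high, so the orders given here are no support for a difference.

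The comparison of KO with WT asked whether loss of PROSER1 changed these genes. No member passed the test at either stage, while 5.21% of all tested genes did at day 2 and 9.48% in mESC. At an unadjusted p under 0.05 there were 2 members at day 2 and 1 in mESC. edgeR and DESeq2 each called 1 member at day 2 and 0 in mESC, where DESeq2 gave no adjusted p for Pcdhga8 and Pcdhgc5. The median log2 difference of the 12 members was -0.45 at day 2 and -0.23 in mESC, beside 0.02 and -0.04 over all genes. The libraries did not overlap for 4 members lower in KO and 1 higher at day 2, and for 4 lower and 0 higher in mESC. Among all tested genes, 24.6% were lower and 23.2% higher without overlap at day 2, and 31.6% and 27.3% in mESC.

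The member closest to the threshold was Pcdhgc3 at day 2. Both KO libraries, with 304.3 and 343.4 normalised counts, lay below both WT libraries, with 625.9 and 455.7. The log2 difference was -0.72 ± 0.20 (1.65-fold lower in KO, adjusted p = 0.0591 with limma, 0.0346 with edgeR and 0.00911 with DESeq2), so the call depended on the tool. It also depended on 1 library, since without WT day 2 replicate B the difference was -0.95 (adjusted p = 0.0346) and without WT day 2 replicate A it was -0.49 (adjusted p = 0.311). In mESC the difference was -0.21 ± 0.20 (adjusted p = 0.498), and the groups overlapped.

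Pcdhga12 at day 2 had 21.1 and 24.4 normalised counts in KO+Rescue, 25.9 and 22.4 in KO and 52.7 and 47.1 in WT. The mESC libraries had 35.6 and 35.6 in KO+Rescue, 29.1 and 28.3 in KO and 33.2 and 26.5 in WT. At day 2, then, both edited lines lay below WT, and in mESC KO and WT overlapped. The log2 difference of KO from WT at day 2 was -1.02 ± 0.33 (2.02-fold lower, adjusted p = 0.0990, limma) and missed the threshold. Its 95% interval ran from -1.72 to -0.32.

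Pcdhga1, the most upstream gene of the gamma cluster, had the largest fitted difference between KO and WT in mESC. It had 17.8 and 23.2 normalised counts in KO+Rescue, 32.5 and 13.5 in KO and 49.8 and 50.9 in WT. At day 2 it had 42.2 and 17.8 in KO+Rescue, 54.7 and 31.4 in KO and 26.6 and 47.8 in WT. The edited lines were below WT in mESC without overlap and overlapped with it at day 2. The log2 difference of KO from WT in mESC was -1.22 ± 0.51 (adjusted p = 0.141, limma), with an interval from -2.33 to -0.11.

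Pcdhac2 at day 2 was lower in both KO libraries, with 37.7 and 26.2 normalised counts, than in both WT libraries, with 61.7 and 63.8. By counting error alone the ratio was 0.510 (0.391 to 0.662), on 86 against 190 reads. The test across libraries gave a log2 difference of -0.98 ± 0.83 (adjusted p = 0.588, limma). That SE draws on the spread within all 6 groups, also the mESC groups with few reads, and not on the day 2 libraries alone. The unadjusted p was 0.0625 with edgeR and 0.0559 with DESeq2, and the adjusted p was 0.277 with edgeR and 0.266 with DESeq2. Over the 12 members the median SE of these log2 differences was 0.56, beside 0.20 for Pcdhgc3, the member with the most reads.

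KO+Rescue against KO asked whether added Proser1 moved the genes again. No member passed the test at day 2, where 1.83% of all genes did, or in mESC, where 1.51% did. At an unadjusted p under 0.05 there were 2 members at day 2 (Pcdhga8 and Pcdhgc3) and 1 in mESC (Pcdhga10), and edgeR called none. DESeq2 called none of the members to which it gave an adjusted p, which left out Pcdhga8 (unadjusted p = 0.0186) and Pcdhgc5 at day 2 and Pcdhga2, Pcdhga4, Pcdhga8 and Pcdhgc5 in mESC. The median log2 difference of the 12 members was 0.41 at day 2 and 0.13 in mESC, beside -0.02 and 0.03 over all genes. Libraries did not overlap for 5 members higher and 0 lower at day 2, where 28.7% of all genes were higher and 32.2% lower without overlap. In mESC 4 were higher and 1 lower, beside 23.4% and 22.1%.

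At day 2 Pcdhgc3 was higher in both KO+Rescue libraries (462.3 and 479.1) than in both KO libraries (304.3 and 343.4). The log2 difference was 0.54 ± 0.20 (1.45-fold, adjusted p = 0.199, limma). Pcdhga8 was also higher, with 24.6 and 29.1 against 9.60 and 8.98, a log2 difference of 1.43 ± 0.53 (2.70-fold, adjusted p = 0.194). That gene passed the filter with the help of its KO+Rescue day 2 values, so the filter favoured this direction. Pcdhga12 lay in the same range in both edited lines (21.1 and 24.4 in KO+Rescue, 25.9 and 22.4 in KO), with a difference of -0.08 and an interval from -0.78 to 0.62. The comparisons of KO+Rescue with KO and of KO with WT share the KO libraries, so values that are high or low in KO enter both with opposite sign.

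Between genotypes, limma called 1 member, in KO+Rescue against WT, while Pcdhgc3 in KO against WT was called by edgeR and DESeq2. Pcdhga12 was lower in KO+Rescue than in WT at day 2, with a log2 difference of -1.10 ± 0.33 (2.14-fold lower, adjusted p = 0.0469, limma). Among all tested genes, 7.20% were lower and 11.1% were called in either direction. The call lay close to the threshold, since it held with DESeq2 (adjusted p = 0.0401) but not with edgeR (adjusted p = 0.0553), and it was lost without any 1 of the 4 libraries. In mESC no member passed, with 1 at an unadjusted p under 0.05 (Pcdhga1, -1.27 ± 0.51, adjusted p = 0.0996), 0 by edgeR and 0 by DESeq2, while 18.2% of all genes were called.

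**Figure D4:**
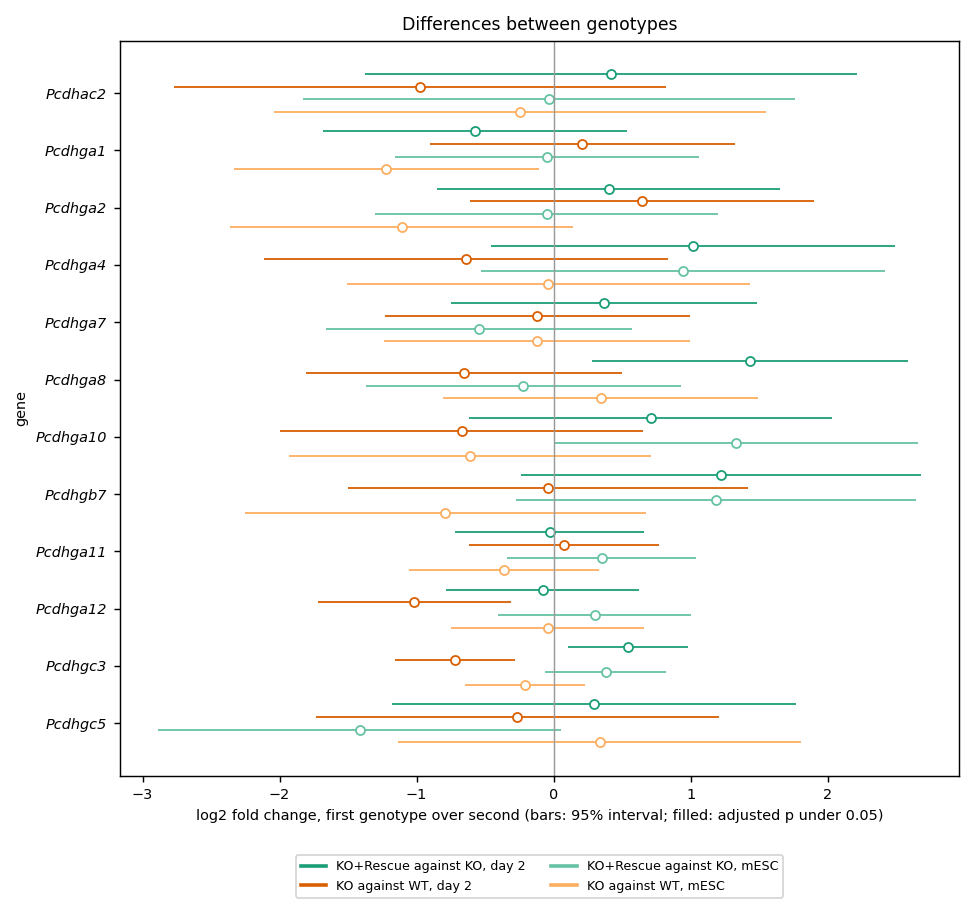
Log2 fold change between genotypes for the 12 tested members (rows), as KO+Rescue over KO and KO over WT at day 2 (dark) and in mESC (light), with 95% intervals from limma. No point is filled, since no adjusted p was under 0.05. Pcdhgc3 at day 2 lies at -0.72 for KO over WT and at 0.54 for KO+Rescue over KO, and Pcdhga12 at -1.02 and -0.08.

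Whether KO and WT changed differently from mESC to day 2 was tested as an interaction, and no member passed in limma, with 0 at an unadjusted p under 0.05 and 0 by edgeR and DESeq2, which gave no adjusted p for Pcdhga8 and Pcdhgc5. Among all tested genes 1.13% were called. The interval was wide for most members, for example from -0.02 to 3.53 on the log2 scale for Pcdhga2 and from -1.13 to 0.11 for Pcdhgc3.

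**Figure D5:**
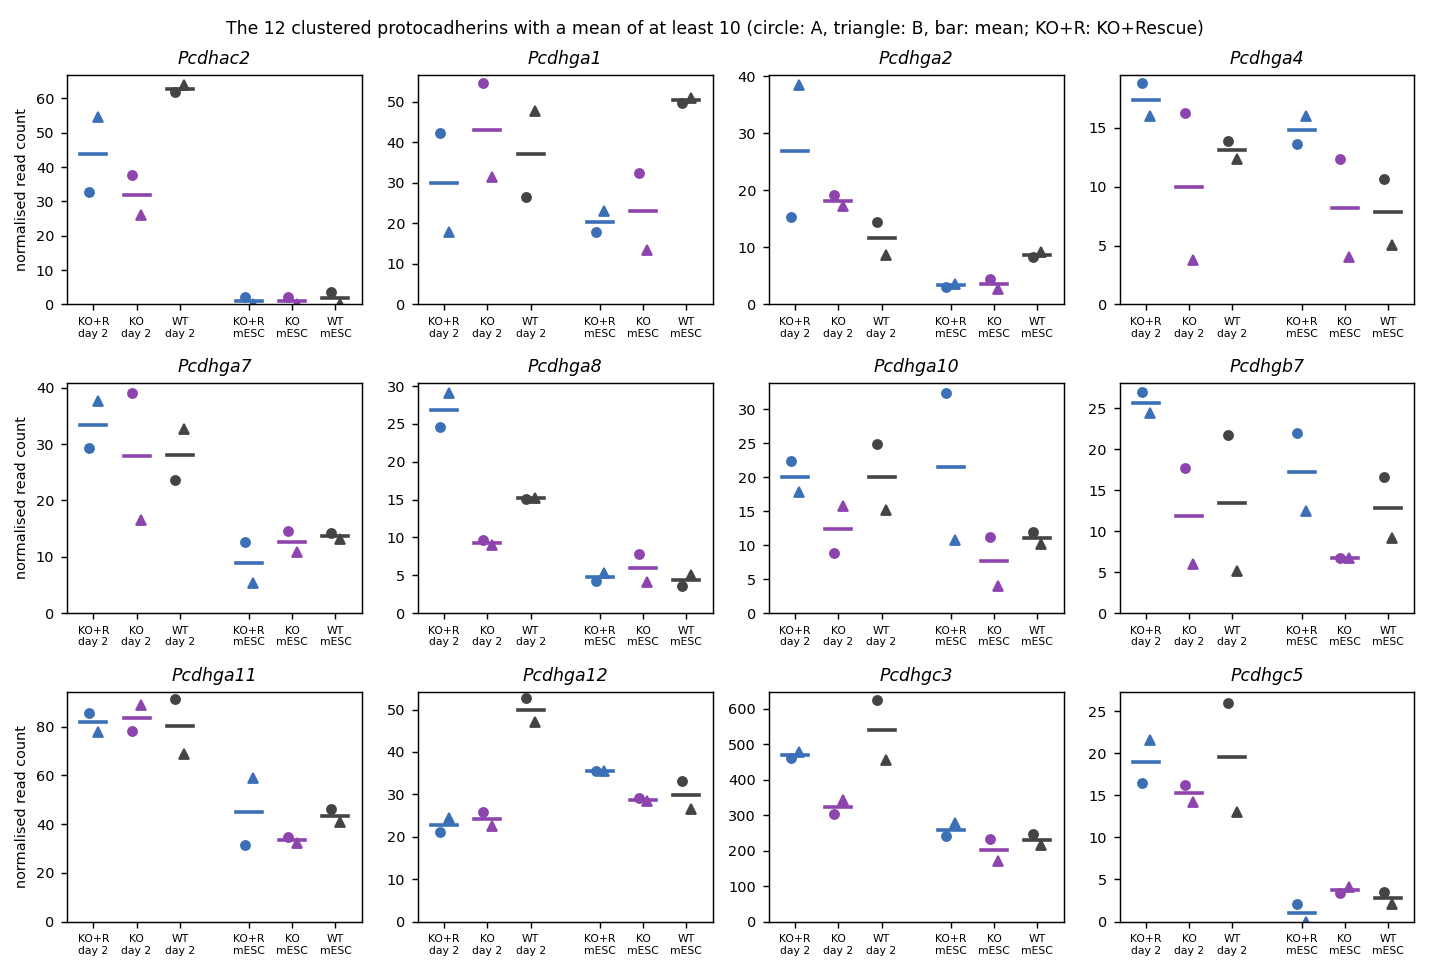
Normalised read counts of the 12 tested members (panels, each with its own axis from 0) by genotype and stage, with a circle for library A, a triangle for library B and a bar for the mean of 2. Pcdhac2 and Pcdhgc5 are near 0 in the 6 mESC libraries, Pcdhgc3 has its lowest mean of each stage in KO, and Pcdhga12 at day 2 lies between 21.1 and 25.9 in the edited lines, against 47.1 and 52.7 in WT.

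The genes around and between the clusters were measured in the same libraries. Of 22 such genes, 21 were tested, and in KO against WT 0 rose and 1 fell at day 2 (Dnd1, a germ cell RNA-binding protein, -1.02 ± 0.17, adjusted p = 0.00443, limma), while 1 rose and 1 fell in mESC. Those 2 were Ndufa2, a subunit of respiratory complex I (0.91 ± 0.16, adjusted p = 0.00453), and Cd14, a lipopolysaccharide receptor (-1.65 ± 0.45, adjusted p = 0.0374). Among all tested genes 5.21% were called at day 2 and 9.48% in mESC, so these counts lay near the share of all genes. Taf7, a subunit of the general factor TFIID, lies between the beta and gamma clusters (chr18:37640491-37644204) and had between 8099 and 18024 normalised counts. Its neighbour Slc25a2, a mitochondrial carrier (chr18:37637378-37638723), had between 0 and 7.32. High and near-silent genes thus stood side by side between the clusters.

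Among 14 architecture factors that bind or shape the clusters, none was called in KO against WT at day 2 and 1 fell in mESC. The shares of all tested genes called were 5.21% at day 2 and 9.48% in mESC. Rad21, a cohesin subunit and the list's highest by mean, differed by -0.05 ± 0.13 at day 2 (adjusted p = 0.880, limma). Ctcf itself, the zinc finger protein that binds the protocadherin promoters, had day 2 means of 7936 in KO and 7277 in WT, and mESC means of 8907 in KO and 8889 in WT. The gene that fell was Ctcfl, its germ line paralogue (-1.99 ± 0.43, adjusted p = 0.0127, limma). Rest, a repressor of neuronal genes, did not pass in mESC (-0.33 ± 0.14, adjusted p = 0.148).

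Of 20 DNA methylation and silencing factors, 2 rose and 2 fell in KO against WT at day 2, and 0 rose and 2 fell in mESC, where 5.21% of all tested genes were called at day 2 and 9.48% in mESC. At day 2 the smallest adjusted p belonged to Dppa3, which protects DNA from methylation in the oocyte (-2.15 ± 0.21, adjusted p = 6.75e-05, limma), Dnmt3l, a cofactor of the de novo methyltransferases (-1.09 ± 0.14, adjusted p = 0.000692), and Tet2 (0.82 ± 0.18, adjusted p = 0.0191). In mESC the genes that fell were the methyltransferase Dnmt3a (-0.66 ± 0.13, adjusted p = 0.00752) and Dnmt3l (-0.51 ± 0.14, adjusted p = 0.0431). Smchd1, a silencing factor that represses clustered protocadherins in mouse, was not called at day 2 (-0.11 ± 0.16, adjusted p = 0.765) or in mESC (-0.35 ± 0.16, adjusted p = 0.163). Whether DNA methylation at the protocadherin promoters moved with these RNAs was not analysed here.

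Of 21 signalling and processing partners of the clustered protocadherins, 20 were tested. Their counts, and those of the cadherins below, stand beside 5.21% of all tested genes called between KO and WT at day 2 and 9.48% in mESC. The partner counts lay near these shares. In KO against WT 0 rose and 1 fell at day 2 (Ret, a receptor kinase bound by protocadherins, -2.27 ± 0.40, adjusted p = 0.00511, limma), and 0 rose and 2 fell in mESC, Nlgn2 (-0.96 ± 0.20, adjusted p = 0.0127) and the kinase Ptk2b, which the proteins inhibit (-0.77 ± 0.18, adjusted p = 0.0195). Of the 13 tested classical cadherins and catenins, none was called at day 2 (Ctnnb1, the list's highest by mean and the beta-catenin of adherens junctions, had means of 32421 in KO and 29786 in WT), and Cdh3 fell in mESC (-1.59 ± 0.23, adjusted p = 0.00134).

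The non-clustered protocadherins and their relatives were also compared between stages. Of the 22 listed, 12 passed the filter on the mean, which a high day 2 level helps a gene to pass, and at day 2 against mESC 10 rose and 2 fell in KO+Rescue, 10 rose and 1 fell in KO and 9 rose and 0 fell in WT, beside 58.2% in KO+Rescue, 60.1% in KO and 51.9% in WT of all tested genes called in either direction. Median log2 changes over the 12 were 2.52 in KO+Rescue, 2.67 in KO and 2.25 in WT. Pcdh1, the non-clustered protocadherin that lies downstream of the gamma cluster, averaged 3262 normalised counts in KO+Rescue, 3488 in KO and 2711 in WT at day 2, against 37.6 in KO+Rescue, 41.4 in KO and 54.6 in WT mESC. Its log2 change was 6.43 ± 0.23 in KO+Rescue, 6.36 ± 0.23 in KO and 5.58 ± 0.23 in WT, with adjusted p of at most 1.68e-09 (WT, limma). In KO against WT none of the 12 was called at day 2 (Fat1, the list's highest by mean, 0.34 ± 0.21, adjusted p = 0.430) and Fat3, an atypical cadherin, rose in mESC (mean 6.85 in KO and 0.509 in WT, adjusted p = 0.00919, limma). Of all tested genes, 5.21% were called in that comparison at day 2 and 9.48% in mESC.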

How the data were processed

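RNA was sequenced as paired reads from a directional library kit (NEBNext Ultra II), 2 libraries in each of 6 groups. The deposited values are a signal per gene, normalised read counts for which the authors trimmed reads (Trimmomatic), aligned them to mm10 (STAR), removed those on chromosome Y, counted read pairs per ncbiRefSeq gene (featureCounts) and divided by DESeq2 size factors. Versions, the strand setting and the treatment of reads in several genes were not given in the sources used here. Within a library, 100% of the values above 0 were whole multiples of the smallest (tolerance 0.001), so whole reads and library totals were recovered. Columns that carry the code of a line were taken as KO, and with an added R as KO+Rescue, which is inferred and stated by no label. The letters A and B name libraries and were not matched to numbered samples.

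Values were transformed as log2(normalised count + 1), and 6 group means were fitted with limma 3.58.1 (R 4.3.3), using a trended prior variance, on 15341 genes with a mean of at least 10. The fit had 6 residual and 6.92 prior degrees of freedom. Tests were two-sided in 10 contrasts, adjusted within each. A fold is the antilog of the fitted change, on this scale, and understates changes of low genes. Ratios with intervals come from recovered reads scaled by the deposited size factors. Alternatives were pseudocounts of 0.5 and 4, filters, equal library totals, the groups of a contrast alone, leaving out each library, the replicate letter as a block, and edgeR 4.0.16 (quasi-likelihood, TMM) and DESeq2 1.42.0 on recovered reads. The fitting step was tested on simulated data.

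Members, gene lists and tests were chosen with earlier results of these data known. Every member with a mean of at least 10 could be named, with values in every library for those called in any contrast or among the 3 highest of their cluster. Members below 10 were named where a group mean reached 10. Library values of Pcdhgb2 and Pcdhgb5 were given outside these rules. Of each gene list, up to 3 genes with the smallest adjusted p per contrast were named, or the gene with the highest mean where none passed. Other genes named in the text (Ctcf, Rest, Smchd1, Taf7, Slc25a2 and Pcdh1) were chosen after their values were seen. All 58 members matched a RefSeq position. Promoters of the members, and DNA methylation and ChIP data, were not analysed here.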

Additional observations from a re-analysis of the deposited data

Results flagged for a closer look

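A few members moved in opposite directions in different groups without overlap between libraries. How many of all tested genes did so was not counted, so these patterns are not shown to be a trait of the members. The difference between such changes was then tested in limma as an interaction, added after the values were seen, over all 15341 genes.

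Pcdhga2 was higher in KO than in WT at day 2 by a mean of 6.60 normalised counts and differed by -5.14 in mESC (interaction 1.75 ± 0.82 on the log2 scale, adjusted p = 0.392). In KO+Rescue against WT, its mean differed by 15.27 at day 2 and by -5.38 in mESC (interaction 2.21 ± 0.82, adjusted p = 0.273).

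Pcdhga12 differed between KO+Rescue and WT by a mean of -27.11 at day 2 and 5.76 in mESC. With stage its mean changed by -12.81 in KO+Rescue, by -4.58 in KO and by 20.06 in WT. The interaction was -1.36 ± 0.46 for KO+Rescue against WT (adjusted p = 0.226) and -0.97 ± 0.46 for KO against WT (adjusted p = 0.399).

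Pcdhgc5 differed between KO+Rescue and KO by a mean of 3.78 at day 2 and -2.66 in mESC, where 2 and 6 reads were counted in those groups (interaction 1.71 ± 0.96, adjusted p = 0.638). None of these interactions passed the test. By limma, 0 of the 12 members passed in each of the 3 interactions, with 0 at an unadjusted p under 0.05 for KO against WT, 1 for KO+Rescue against KO and 2 for KO+Rescue against WT. Among all tested genes, 1.13% passed for KO against WT, 0.0847% for KO+Rescue against KO and 0.808% for KO+Rescue against WT. The last 2 interactions were not run in another tool.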

How the results depend on the processing

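Among members called or at an unadjusted p under 0.05 in a contrast, no alternative reversed the direction. Small differences of other members could change sign, such as Pcdhga4 in KO against WT in mESC (-0.04 with limma and 0.10 with edgeR). Of the 143 recounted numbers of called members, 116 were unchanged or stayed within 1.5 times. Counts of 0 that stayed at 0 are among these, so this number says little about stability. In KO against WT at day 2, edgeR, DESeq2 and the replicate block each called 1 member, Pcdhgc3 (lower in KO), and leaving out single libraries gave 0 to 1. KO+Rescue against KO at day 2 gave 2 when only its groups were fitted, Pcdhgc3 (adjusted p = 0.0288) and Pcdhga8 (adjusted p = 0.0365). The filter favoured Pcdhga8 in this direction, so its call is no support for a difference. KO+Rescue against WT in mESC gave 1 with equal library totals, Pcdhga1 (-1.58, adjusted p = 0.0336). At day 2 the 1 call became 0 with a pseudocount of 0.5, no filter, a mean of at least 50, the 2 groups alone and edgeR, and 0 to 0 without single libraries. With a group mean of at least 10 in any group, chosen after seeing the data, the count stayed at 1 but the gene was Pcdhgb5, higher in KO+Rescue, which passed this filter through its KO+Rescue day 2 mean alone, so its call is no support for a difference.

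The stage counts followed how many members were tested. Without a filter they were 17 in KO+Rescue, 13 in KO and 8 in WT, and with a mean of at least 50, where 2 members were left, 2 in each genotype. Leaving out single libraries gave 5 to 6 in KO+Rescue, 2 to 5 in KO and 2 to 4 in WT. The groups of the contrast alone gave 3 in WT. The filter on group means gave 9 in KO, 8 up and 1 down. The members it added (Pcdhb2, Pcdhb14 and Pcdhb22 up, Pcdhgb2 down) passed it through the stage in which they were high, so the filter favoured the direction of each call.

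No label says that the letters A and B mark a shared culture or day. Deviations of same-letter libraries correlated between -0.0481 and 0.413 across 15 pairs of groups, with 6 of them over 0.1 (WT day 2 with each mESC group, and the mESC groups with each other), so the letters were not taken as pairs, though a shared factor in some groups was not tested. With the replicate block, KO against WT at day 2 gave 1 called member, Pcdhgc3 (-0.72, adjusted p = 0.0223), and no other count moved by over 1.5 times. Under equal library totals the median log2 difference of all genes was -0.38 in KO+Rescue against WT in mESC and -0.22 at day 2. With few reads per member, small differences were not detectable at this depth. A gene at 0 had no counted read in that library, which still allows an expected count of up to 3.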
